A study of Mus musculus with 5 samples.

Results

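The genes that separate a library of reprogrammed cells from blood leukocytes are described here. MCC is labelled a myeloid-like cell complex and comes from a mouse series on the direct reprogramming of fibroblasts to macrophages, and PB is the library of blood cells, which the design text gives as CD45+ cells and the labels call plasma blood cells. Both are labelled wild type, as are the 3 further libraries of the series, MEF (embryonic fibroblasts), iPSC (induced pluripotent cells) and BM (bone marrow). How the MCC cells were made, which agents they received, and the age or strain of the animals are not stated in the labels. The labels do not say whether MCC came from 1 culture or several. Of 34970 gene symbols, 12545 reached 5 CPM (read counts per gene divided by a scaled library size) in MCC or PB, and these are the genes compared. Each group is 1 library, so differences have no check between replicates and no p-values were computed. A gene was counted as apart when its CPM differed by 4-fold or more, after any count below 3 was raised to 3, and a fold is followed by a 95% interval that covers counting error only. Sequencing reads without molecular identifiers are not independent molecules, so the intervals are narrower than the true error.

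Macrophages are phagocytes that live in tissues, where they clear dying cells and foreign matter through scavenger receptors, complement and antibody (Fc) receptors, and break down what they take up in lysosomes. Blood carries other leukocytes: neutrophils, monocytes, B cells, T cells and natural killer cells. Monocytes can leave the blood and become macrophages. Fibroblasts lay down collagen and other matrix. To read the leukocyte genes of MCC apart from fibroblast genes, each gene was placed by its level in MEF, at or under 1 CPM or above it.

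Total counts were 47557598 in MCC and 30078366 in PB, and between 40774101 and 46517281 in the other 3 libraries. Haemoglobin genes took 0.00102% of the counts in MCC and 9.04% in PB, although PB is described as CD45+ cells, which red cells are not. The library code of PB lies far from those of the others, which are close together, so a batch of that library and blood itself cannot be told apart. Among 24 genes that leukocytes of most kinds share, 22 reached 5 CPM in MCC and 24 in PB, with a median level of 111 CPM in MCC and 550 CPM in PB. The median of their ratios was 3.64-fold lower in MCC. In a bulk library, fewer cells of a type and less RNA of a gene per cell cannot be told apart, and this holds for every result below.

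Of the 12545 genes, 4626 (36.9%) were at least 4-fold apart: 2699 (21.5%) were higher in MCC and 1927 (15.4%) were lower. The median log2 ratio over all 12545 genes was 0.38. The level in MEF divided them. Of the 1339 genes at or under 1 CPM in MEF, 134 (10%) were higher in MCC, 981 (73.3%) were lower and 224 were less than 4-fold apart. Either way, 83.3% of the 1339 were apart. Of the 11206 genes above 1 CPM in MEF, 2565 (22.9%) were higher in MCC and 946 (8.44%) were lower. The 2565 genes took 28.9% of the counts in MCC and 2.72% in PB, against 1.42% in MCC and 0.0814% in PB for the 134. The 981 genes took 0.337% of the counts in MCC and 18.9% in PB. Only 18 of the 134 genes and 117 of the 981 reached 5 CPM in both MCC and PB. Most thus entered the comparison through the library where they were higher. Scaling by DESeq2 size factors lowered the median of all genes by 0.28 on the log2 scale and gave 2264 higher and 2328 lower. Scaling that set the median of the 24 shared leukocyte genes to 1 raised the median of all genes by 1.86 and gave 6875 higher and 960 lower. Total counts without further scaling gave 2441 higher and 2038 lower, with the median of all genes lower by 0.13. No gene changed from higher to lower, or the reverse, but this was fixed in advance. Each of these scalings shifts all ratios by the same amount, which is too small for such a change.

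**Figure D1:**
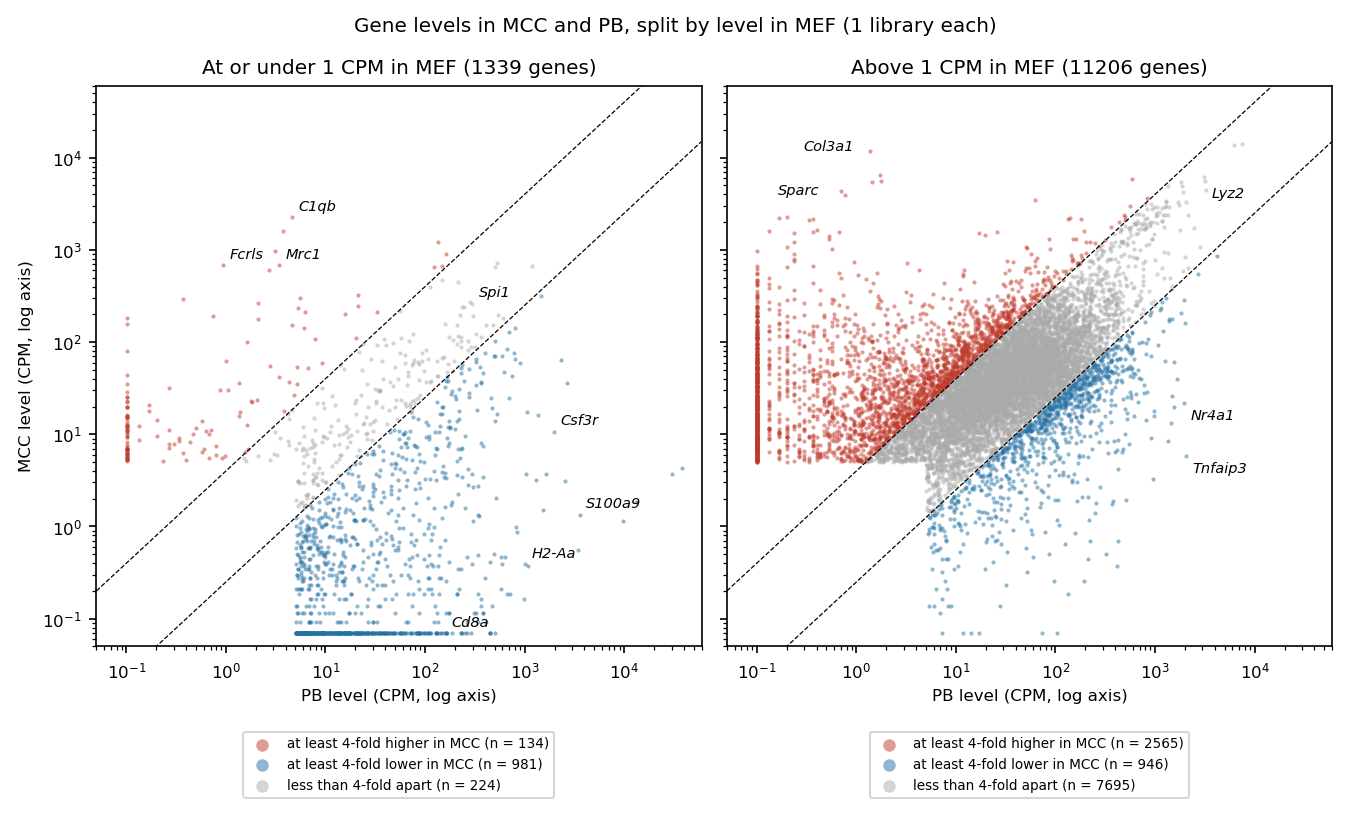
Level of each gene in MCC (vertical, CPM, log axis) against PB (horizontal, CPM, log axis), for the 1339 genes at or under 1 CPM in MEF (left) and the 11206 above it (right), 1 library each, with counts under 3 drawn at 3. Points above the upper dashed line were higher in MCC (134 left, 2565 right) and points below the lower one lower in MCC (981 left, 946 right).

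At the limit itself, Aifm2 was inside at 20.4 CPM in MCC and 5.09 CPM in PB, and Gorab was outside at 20.3 CPM in MCC and 5.09 CPM in PB. On the lower side, Pptc7 was inside at 12.3 CPM in MCC and 49.4 CPM in PB, and Nod1 was outside at 25.6 CPM in MCC and 102 CPM in PB.

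Most resident macrophage genes were higher in MCC than in PB. Of 35 listed, 31 reached 5 CPM in either library, 24 were higher in MCC and 1 was lower. In MCC 31 reached 5 CPM and in PB 16, so the limit favoured finding them higher. The median log2 ratio of the 33 that reached 1 CPM in either library was 5.09, and that of all 35 was 4.30, beside 0.38 for all genes compared. List medians below are likewise over members at 1 CPM or more. Of the 19 at or under 1 CPM in MEF, 16 were higher in MCC, where the background was 10%, and none was lower. The 3 chains of C1q, the first component of the classical complement pathway and a long-standing macrophage product, lie side by side on chromosome 4. C1qb had 2288 CPM in MCC and 4.62 CPM in PB, a 495-fold difference (419 to 590). C1qc had 1615 CPM in MCC and 3.78 CPM in PB, and C1qa had 972 CPM in MCC and 3.11 CPM in PB. All 3 chains were low in MEF, at 0.0462 to 0.162 CPM, and they were at 58.8 to 62.0 CPM in BM.

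Receptors of tissue macrophages were among the higher genes. Mrc1, the mannose receptor CD206, had 690 CPM in MCC and 3.45 CPM in PB, 200-fold higher (165 to 245). Fcrls, an Fc receptor-like gene known in mice as a mark of microglia, had 682 CPM in MCC and 0.937 CPM in PB, 728-fold higher (503 to 1095). It was also close to absent from BM, at 0.0982 CPM. Ms4a7, a membrane protein of macrophages, had 191 CPM in MCC and 0.737 CPM in PB. Trem2, a receptor for lipids and cell debris, had 301 CPM in MCC and 5.59 CPM in PB, 53.9-fold higher (46.3 to 63.2). The scavenger receptor gene Stab1 had 235 CPM in MCC and 5.29 CPM in PB, and the lectin gene Clec10a had 211 CPM in MCC and 6.19 CPM in PB. Folr2, which encodes a folate receptor of macrophages, had 35.2 CPM in MCC and no read in PB, and was at least 350-fold higher against a floor of 3 counts, with a 95% counting limit of 285-fold. Since 63.1% of its exon bases overlap a gene on the opposite strand and the strand setting of the counting is not given, its reads cannot all be assigned to it.

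Other macrophage genes were under 4-fold apart or did not reach 5 CPM in either library. Csf1r, the receptor for the macrophage growth factor CSF-1, had 869 CPM in MCC and 550.5 CPM in PB, a ratio of 1.58 (1.55 to 1.61). Adgre1, which encodes the F4/80 antigen used to stain mouse macrophages, had 400.1 CPM in MCC and 111 CPM in PB, 3.60-fold apart. Siglec1 and Msr1 were also under 4-fold. The 4 genes that did not reach 5 CPM in either library were Timd4, Vsig4, Lyve1 and Cd163, which mark particular resident macrophages. Timd4 had no read in MCC and 2.34 CPM in PB, and Cd163 had 0.995 CPM in MCC and 3.41 CPM in PB. The 1 lower gene was Slc40a1, the iron exporter ferroportin, at 27.6 CPM in MCC and 127 CPM in PB.

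**Figure D2:**
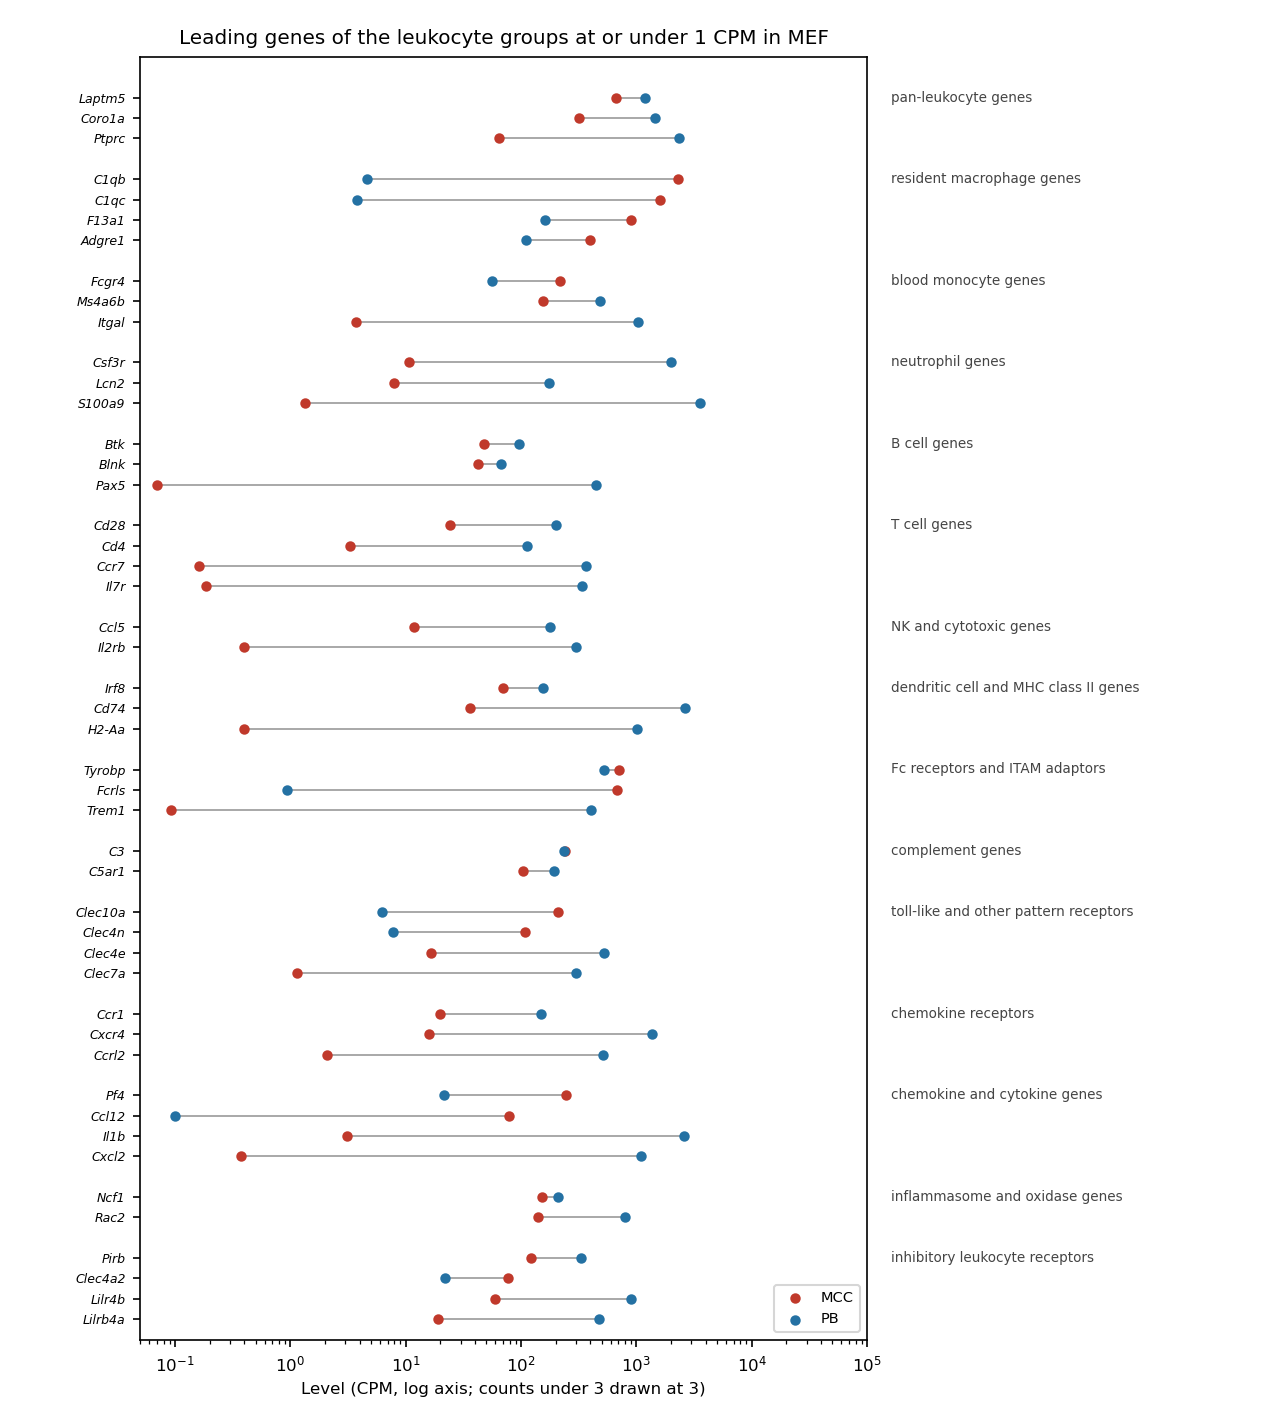
Levels in MCC (red) and PB (blue) on a log CPM axis of genes at or under 1 CPM in MEF, 1 library each: for each leukocyte group, up to 2 genes highest in MCC and up to 2 highest in PB, each gene drawn once, with counts under 3 drawn at 3. The red points lie to the right for C1qb (2288 CPM in MCC, 4.62 CPM in PB) and Fcrls, and far to the left for S100a9 (1.34 CPM in MCC, 3583 CPM in PB).

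Genes of blood monocytes were more often lower than higher in MCC. All 34 reached 5 CPM in either library, and 3 of them were higher in MCC and 21 lower, beside 21.5% and 15.4% of all genes. Of the 21 at or under 1 CPM in MEF, 17 were lower, where the background of 73.3% is close. Their median log2 ratio was -3.53. The 3 higher genes, Vcan, S100a4 and Mgst1, were all above 1 CPM in MEF. Ly6c2, part of the Ly6C antigen of classical mouse monocytes, had 0.185 CPM in MCC and 208 CPM in PB, 1122-fold lower (569 to 2599). Ccr2, the chemokine receptor by which monocytes leave the marrow, had 0.717 CPM in MCC and 159 CPM in PB. Cx3cr1, the receptor of patrolling monocytes and of several tissue macrophages, had 0.555 CPM in MCC and 49.9 CPM in PB, 89.9-fold lower (60.2 to 141). Lyz2, the myeloid lysozyme, was under 4-fold apart, at 5597 CPM in MCC and 3202 CPM in PB. With the shared leukocyte median set to 1, 8 of the 34 were higher and 15 lower.

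Genes of the other blood lineages were lower in MCC. All 26 neutrophil genes compared were lower, as were 27 of 28 T cell genes, all 20 natural killer and cytotoxic genes and 20 of 23 B cell genes, beside 15.4% of all genes. Among those at or under 1 CPM in MEF, where 73.3% of all genes were lower, the counts were 24 of 24, 20 of 20, 19 of 19 and 18 of 20. Most of these lineage genes entered the comparison through PB, so the 5 CPM limit itself favoured finding them lower. In PB 26 neutrophil, 28 T cell, 20 natural killer and cytotoxic and 23 B cell genes reached 5 CPM. The matching numbers in MCC were 5, 3, 1 and 8. S100a9, a calcium-binding protein abundant in neutrophils, had 1.34 CPM in MCC and 3583 CPM in PB, 2669-fold lower (2064 to 3515). The receptor for the neutrophil growth factor G-CSF, Csf3r, had 10.7 CPM in MCC and 1985 CPM in PB. Pax5, the transcription factor that maintains B cell identity, had 2 reads in MCC and 13426 in PB. It was 9710-fold lower without the floor of 3 counts (2688 to 80190) and 6474-fold lower with it. Cd3e, a signalling chain of the T cell receptor, had no read in MCC, beside 71.3 CPM in PB, and the coreceptor gene Cd8a had none in MCC, beside 161 CPM in PB. The granzyme gene Gzma also had no read in MCC, beside 133 CPM in PB, at least 1915-fold lower. Cd28, the costimulatory receptor of T cells, was also lower but was read at 24.3 CPM in MCC, beside 203 CPM in PB. The T cell gene that was under 4-fold apart was Thy1, which fibroblasts also express, at 664.5 CPM in MCC, 166 CPM in PB and 1030 CPM in MEF. Among B cell genes, the factor gene Ebf1 had 48.9 CPM in MCC, 97.4 CPM in PB and 37.1 CPM in MEF, and the signalling genes Btk and Blnk, which myeloid cells also use, were under 4-fold apart. Platelet and erythroid genes were lower in 18 of 20 and 12 of 16. Pf4, a chemokine of platelets that some macrophages also make, was the 1 higher platelet gene, at 248 CPM in MCC and 21.4 CPM in PB, and Gng11 was under 4-fold apart.

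Shared leukocyte genes were lower in 11 of 24 cases and higher in none, beside 15.4% of all genes lower. Of the 20 at or under 1 CPM in MEF, 10 were lower, a smaller share than the 73.3% of all such genes. Ptprc, which encodes CD45 itself, had 64.3 CPM in MCC and 2327 CPM in PB, 36.2-fold lower (34.8 to 37.6). The integrin chain gene Itgb2 had 65.8 CPM in MCC and 795 CPM in PB, 12.1-fold lower (11.6 to 12.6), and its partner Itgal had 3.73 CPM in MCC and 1044 CPM in PB. Laptm5, which blood cells carry in their lysosomes, was within 4-fold at 668 CPM in MCC and 1179 CPM in PB. Fermt3, which activates integrins, had 273 CPM in MCC and 282 CPM in PB. The exchange factor gene Vav1 showed 117 CPM in MCC and 214 CPM in PB. With their own median set to 1, 4 of the 24 were lower and none was higher.

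Receptors for antibody divided by type. Of 25 Fc receptor and ITAM adaptor genes, 23 were compared, 6 were higher in MCC and 13 lower, beside 21.5% and 15.4% of all genes. Of the 19 at or under 1 CPM in MEF, 5 were higher and 10 lower, beside 10% and 73.3% of all such genes. With the shared leukocyte median set to 1, 9 were higher and 8 lower. The higher ones included 3 Fc gamma receptors, Fcgr1, Fcgr2b and Fcgr3. A further Fc gamma receptor, Fcgr4, was under 4-fold apart, at 217 CPM in MCC and 56.0 CPM in PB. Fcgr1, the high-affinity receptor CD64, had 203 CPM in MCC and 15.8 CPM in PB, 12.8-fold higher (11.7 to 14.1). Fcgr2b, the inhibitory receptor, had 657 CPM in MCC and 124 CPM in PB, and Fcgr3 had 662 CPM in MCC and 148 CPM in PB. The adaptor genes Tyrobp and Fcer1g on this list were under 4-fold apart. Tyrobp had 713 CPM in MCC and 525 CPM in PB, and Fcer1g had 447 CPM in MCC and 216 CPM in PB. Among kinases on this list, Syk, Fgr and Lyn were lower. Syk had 70.2 CPM in MCC and 905 CPM in PB, 12.9-fold lower (12.4 to 13.4), and Fgr had 4 reads in MCC and 10207 in PB. Trem1, an amplifying receptor of neutrophils and monocytes, had 0.0926 CPM in MCC and 408 CPM in PB, the reverse of Trem2.

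Uptake and digestion genes were more often higher than lower in MCC, mostly among genes that fibroblasts also express. Of 28 scavenger and apoptotic cell receptor genes compared, 17 were higher and 5 lower, and of 47 lysosomal genes 16 were higher and 4 lower, beside 21.5% and 15.4% of all genes. Among the scavenger genes at or under 1 CPM in MEF, 5 of 9 were higher and 2 lower, beside 10% and 73.3% of all such genes. The 5 higher ones were Mrc1, Stab1, Scara5, Marco and Stab2. Of 47 lysosomal genes 6 were at or under 1 CPM in MEF, and 1 of these was higher and 3 were lower. Ctsb, a cysteine protease, had 5942 CPM in MCC, 591 CPM in PB and 790 CPM in MEF. Cd36, a fatty acid and scavenger receptor, was lower, at 5.32 CPM in MCC and 73.5 CPM in PB. Of 38 lipid handling genes 15 were higher and 2 lower. In the scaling by shared leukocyte genes, 36 lysosomal and 27 lipid handling genes were higher. Apoc1, an apolipoprotein gene, was at or under 1 CPM in MEF and had 2722 reads in MCC and 30 in PB. Of 20 complement genes 9 were higher and 3 lower, and 4 and 3 among the 12 at or under 1 CPM in MEF. C3ar1, the receptor for the C3a fragment, had 179 CPM in MCC and 2.11 CPM in PB, 84.7-fold higher (66.1 to 110), while C3 itself had 239 CPM in MCC and 238 CPM in PB.

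The balance of genes for sensing and alarm depended on the scaling. Of 32 toll-like and other pattern receptor genes compared, 4 were higher in MCC and 11 lower, beside 21.5% and 15.4% of all genes. Of the 21 at or under 1 CPM in MEF, 8 were lower, a smaller share than the 73.3% of all such genes. With the shared leukocyte median set to 1, 7 of the 32 were higher and 3 lower, and the median log2 ratio of -1.28 became 0.58. Of 26 inflammasome and oxidase genes, 4 were higher and 11 lower, against 9 higher and 6 lower in that scaling. Their 16 members at or under 1 CPM in MEF had 2 higher and 9 lower, beside 10% and 73.3% of all such genes. Clec7a, the fungal glucan receptor dectin-1, had 1.13 CPM in MCC and 301 CPM in PB, and the lectin receptor Clec4e had 16.6 CPM in MCC and 529 CPM in PB. Clec4n, the dectin-2 gene, was higher, at 108 CPM in MCC and 7.80 CPM in PB. Nlrp3, the sensor of the best known inflammasome, had 3.75 CPM in MCC and 296 CPM in PB, 78.9-fold lower (67.6 to 92.8). Il1b, a cytokine that this inflammasome activates, had 3.10 CPM in MCC and 2573 CPM in PB, 829-fold lower (700 to 990), and Tnf had 2.27 CPM in MCC and 213 CPM in PB. Cybb, the catalytic chain of the phagocyte oxidase, had 70.9 CPM in MCC and 595 CPM in PB, 8.39-fold lower (8.07 to 8.72). Its cytosolic partner gene Ncf1 was under 4-fold apart, at 152 CPM in MCC and 207 CPM in PB. Among genes that cells also switch on during handling, chosen after their values were seen, Nr4a1 had 21.8 CPM in MCC and 1978 CPM in PB, and Tnfaip3 had 5.81 CPM in MCC and 2035 CPM in PB. In BM these 2 genes had 35.1 and 32.2 CPM. Fos was under 4-fold apart at 209 CPM in MCC and 790 CPM in PB, as was Egr1 at 180 CPM in MCC and 329 CPM in PB. Their part in the cytokine values was not tested.

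Chemokine and cytokine genes differed in both directions. Of 37 compared, 16 were higher and 10 lower, beside 21.5% and 15.4% of all genes, but 13 of the 16 were above 1 CPM in MEF. Of the 16 at or under 1 CPM in MEF, 3 were higher and 8 lower, beside 10% and 73.3% of all such genes. Ccl12, a monocyte attractant found in mice, was among these 3 higher genes, with 79.3 CPM in MCC and 1 read in PB. It was 2368-fold higher without the floor of 3 counts (425 to 93576) and 789-fold higher with it. Ccl8 had 467 CPM in MCC, 3 reads in PB and 2.29 CPM in MEF. Cxcl2, the neutrophil attractant, had 0.370 CPM in MCC and 1092 CPM in PB, 2950-fold lower (1816 to 5162). Ccl6 had 13.8 CPM in MCC and 505 CPM in PB. Among receptors for these signals, 2 of 20 were higher and 16 lower, and 15 of the 17 at or under 1 CPM in MEF were lower, beside 73.3%. The scavenging receptor gene Ackr3 was higher, at 63.2 CPM in MCC, 0.803 CPM in PB and 8.58 CPM in MEF. Cxcr4, which holds cells in the marrow, had 693 reads in MCC and 40858 in PB. On the inflammasome and oxidase list, Hpgds, which makes prostaglandin D2, had 101 CPM in MCC and 1.64 CPM in PB, while Alox5, which begins leukotriene synthesis, had 2 reads in MCC and 2240 in PB.

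MHC class II genes were low in MCC. On the list of class II and dendritic cell genes, of 22 compared, 2 were higher and 16 lower, beside 21.5% and 15.4% of all genes. Of the 16 at or under 1 CPM in MEF, 13 were lower, where the background of 73.3% is close. The higher ones were Zbtb46, a dendritic cell factor at 7.22 CPM in MCC and 0.670 CPM in PB, and the interferon-induced gene Bst2, at 476 CPM in MCC and 45.5 CPM in PB. Both were above 1 CPM in MEF. Ciita, the switch for the class II genes, had 0.278 CPM in MCC and 145 CPM in PB, 522-fold lower (298 to 1011). The chain gene H2-Aa had 0.393 CPM in MCC and 1018 CPM in PB, 2588-fold lower (1616 to 4442). Cd74, the invariant chain, had 35.8 CPM in MCC beside 2648 CPM in PB. B cells and monocytes both carry class II in blood, and the part of their lower genes in the class II values was not tested. Inhibitory receptors were lower in 20 of 30 cases and higher in 1. Of the 25 at or under 1 CPM in MEF, 18 were lower, which is at the background of 73.3%. That 1 was Cd200r1, a restraining receptor of myeloid cells, at 26.5 CPM in MCC and 4.85 CPM in PB, 5.46-fold higher (4.59 to 6.53). Btla, an inhibitory receptor of lymphocytes, had 3 reads in MCC and 13524 in PB. Lilrb4a had 19.2 CPM in MCC and 475 CPM in PB, but it is near identical to Lilr4b, and the counting may have divided reads between them.

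Most interferon response genes were under 4-fold apart. Of 47 compared, 2 (Ifi27l2a and Bst2) were higher and 10 lower, beside 21.5% and 15.4% of all genes. The 16 at or under 1 CPM in MEF had 1 higher and 7 lower, beside 10% and 73.3% of all such genes. With the shared leukocyte median set to 1, 19 of the 47 were higher and 5 lower, and the median log2 ratio of -0.51 became 1.36. Ifi27l2a had 1213 CPM in MCC and 135 CPM in PB, 8.95-fold higher (8.67 to 9.24), and Slfn4 had 0.463 CPM in MCC and 635 CPM in PB. Isg15 was under 4-fold apart, at 156 CPM in MCC and 80.6 CPM in PB.

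Myeloid transcription factor genes differed in both directions, with 6 of 41 higher and 14 lower, beside 21.5% and 15.4% of all genes. In the scaling by shared leukocyte genes, 13 were higher and 4 lower. Only 5 of the 41 were at or under 1 CPM in MEF, and as first scaled 1 of these was higher and 2 were lower. Spi1, which encodes PU.1, the factor needed for macrophages and B cells, had 261 CPM in MCC and 299 CPM in PB, a 1.14-fold difference, and 0.116 CPM in MEF. Cebpa, which acts with it in myeloid cells, had 154 CPM in MCC and 31.5 CPM in PB, 4.89-fold higher (4.57 to 5.24), beside 17.1 CPM in MEF. The counts do not separate a cell's own copy of such a gene from an introduced one. Maf, a factor of mature macrophages, had 232 CPM in MCC against 21.4 CPM in PB. Tfec, a macrophage relative of Mitf, had 35.7 CPM in MCC and 1.34 CPM in PB, 26.7-fold higher (19.5 to 37.5). Irf4, a factor of lymphocytes, had 0.602 CPM in MCC against 53.4 CPM in PB, and Gfi1, a factor of neutrophils, had 1 read in MCC against 344 in PB. The median log2 ratio of the 44 listed was -1.21, and 0.65 with the shared leukocyte median set to 1.

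**Figure D3:**
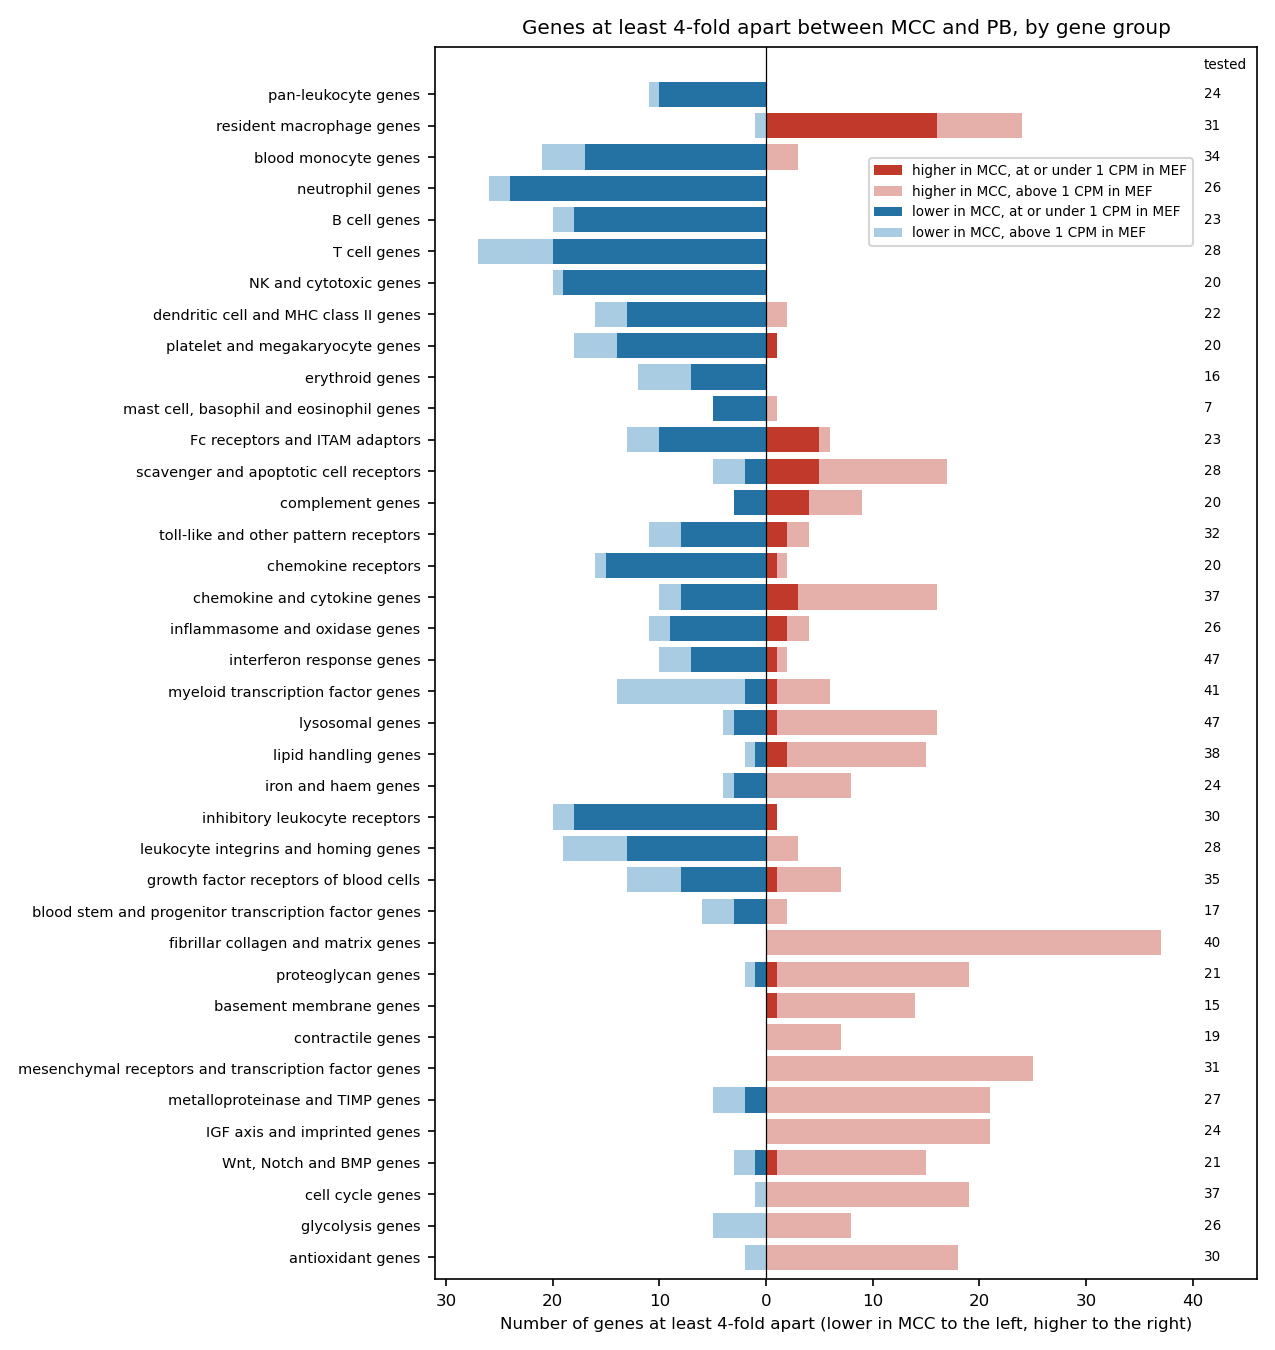
Number of genes at least 4-fold apart between MCC and PB in each gene group (bars to the right, higher in MCC; bars to the left, lower), split by level in MEF, with the number compared at the right edge, 1 library each. Resident macrophage genes have 24 of 31 higher, and neutrophil genes have 26 of 26 lower.

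The promoters of these genes were searched for 1 form of the PU.1 motif. The 250 bases before each RefSeq start (build GRCm38.p6) were read on both strands for GAGGAAGT, whose reverse complement is ACTTCCTC. A gene with more than 1 promoter was counted once, as matched if any of them held the motif. The motif was present in 2.88% of the 17360 genes of the table that had a promoter. Among genes at or under 1 CPM in MEF, it was present in 5 of 94 genes higher in MCC (5.32%) and in 52 of 588 lower in MCC (8.84%). It was also present in 16 of 161 such genes under 4-fold apart (9.94%). Among genes above 1 CPM in MEF, it was present in 1.93% of those higher, 3.24% of those lower and 2.80% of those under 4-fold apart. The AP-1 motif TGANTCA, which is its own reverse complement, was present in 6.94% of all genes with a promoter. Among the genes compared that had a promoter, its share was 5.64%. It was present in 12 of 94 of the higher genes at or under 1 CPM in MEF (12.8%) and in 9.69% of the lower ones. For such genes under 4-fold apart the share was 8.70%. Above 1 CPM in MEF, it was 5.67% of those higher, 9.31% of those lower and 4.61% of those under 4-fold apart. A match to one motif can share an end base with a match to the other. These are counts of letters, not of bound sites. Promoter stretches with a PU.1 match are shown for a pair of genes higher in MCC (C1qc, Pf4), a gene under 4-fold apart (Vav1) and a B cell gene lower in MCC (Fcrl1, with 389 reads in MCC and 2034 in PB). Capitals mark the match. Each stretch reads 5′ to 3′ on the gene's own strand, ends at or before the RefSeq start, and leaves out bases that GENCODE M21 places in an exon.
C1qc (chr4:136893066-136893164, minus strand): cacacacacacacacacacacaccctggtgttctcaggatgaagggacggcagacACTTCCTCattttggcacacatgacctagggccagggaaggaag
Pf4 (chr5:90772185-90772434, plus strand): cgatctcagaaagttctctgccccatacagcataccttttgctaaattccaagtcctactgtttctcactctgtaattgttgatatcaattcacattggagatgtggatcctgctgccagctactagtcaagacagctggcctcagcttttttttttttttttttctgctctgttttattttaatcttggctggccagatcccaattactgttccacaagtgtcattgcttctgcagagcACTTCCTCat
Vav1 (chr17:57278850-57279099, plus strand): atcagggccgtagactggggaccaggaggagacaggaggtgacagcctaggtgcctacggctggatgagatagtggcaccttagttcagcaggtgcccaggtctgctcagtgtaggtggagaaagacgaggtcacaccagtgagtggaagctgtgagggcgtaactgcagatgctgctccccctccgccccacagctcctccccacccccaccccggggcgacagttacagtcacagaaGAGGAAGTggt
Fcrl1 (chr3:87376137-87376386, plus strand): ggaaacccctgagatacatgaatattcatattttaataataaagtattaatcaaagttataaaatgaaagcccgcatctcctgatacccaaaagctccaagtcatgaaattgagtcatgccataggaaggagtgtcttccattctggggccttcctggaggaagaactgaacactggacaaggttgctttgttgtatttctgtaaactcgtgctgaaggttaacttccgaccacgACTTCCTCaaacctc
The match begins 195 bases before the RefSeq start in C1qc, 10 in Pf4, 11 in Vav1 and 15 in Fcrl1, and it lies on the gene's strand only in Vav1 among these 4.

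The MEF limit did not leave leukocyte genes alone. Of the 134 genes higher in MCC and at or under 1 CPM in MEF, 77 were also at or under 1 CPM in BM and 34 reached 5 CPM there, and 30 had no read in PB. The largest counting bound among them belonged to Scara5, a ferritin receptor of mesenchymal and epithelial cells, with 157 CPM in MCC, no read in PB and 151 CPM in iPSC, a difference of at least 1565-fold between MCC and PB against the floor of 3 counts and a counting bound of 1272-fold. Adamts15, a matrix protease gene, had 184 CPM in MCC and 2 reads in PB. Clec3b, which encodes tetranectin, had 296 CPM in MCC and 0.368 CPM in PB, 804-fold higher (449 to 1611). Sox2, a pluripotency gene, had 15.1 CPM in MCC, no read in PB and 148 CPM in iPSC, while Nanog had 0.486 CPM in MCC and no read in PB. Only 6 of 25 listed pluripotency genes were compared, with 3 higher and 1 lower, beside 21.5% and 15.4% of all genes. The list had a median of 0.0231 CPM in MCC, where 11 of the 25 had no read. Its 2 members highest in MCC, Myc and Klf4, were under 4-fold apart. The acute phase gene Saa3, chosen after its values were seen, had 605 CPM in MCC and 2.68 CPM in PB, 226-fold higher (181 to 285). Chosen likewise, the macrophage genes Aif1, Gpr34 and P2ry6 had 155, 29.9 and 142 CPM in MCC against 4.62, 0.870 and 6.03 CPM in PB.

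**Figure D4:**
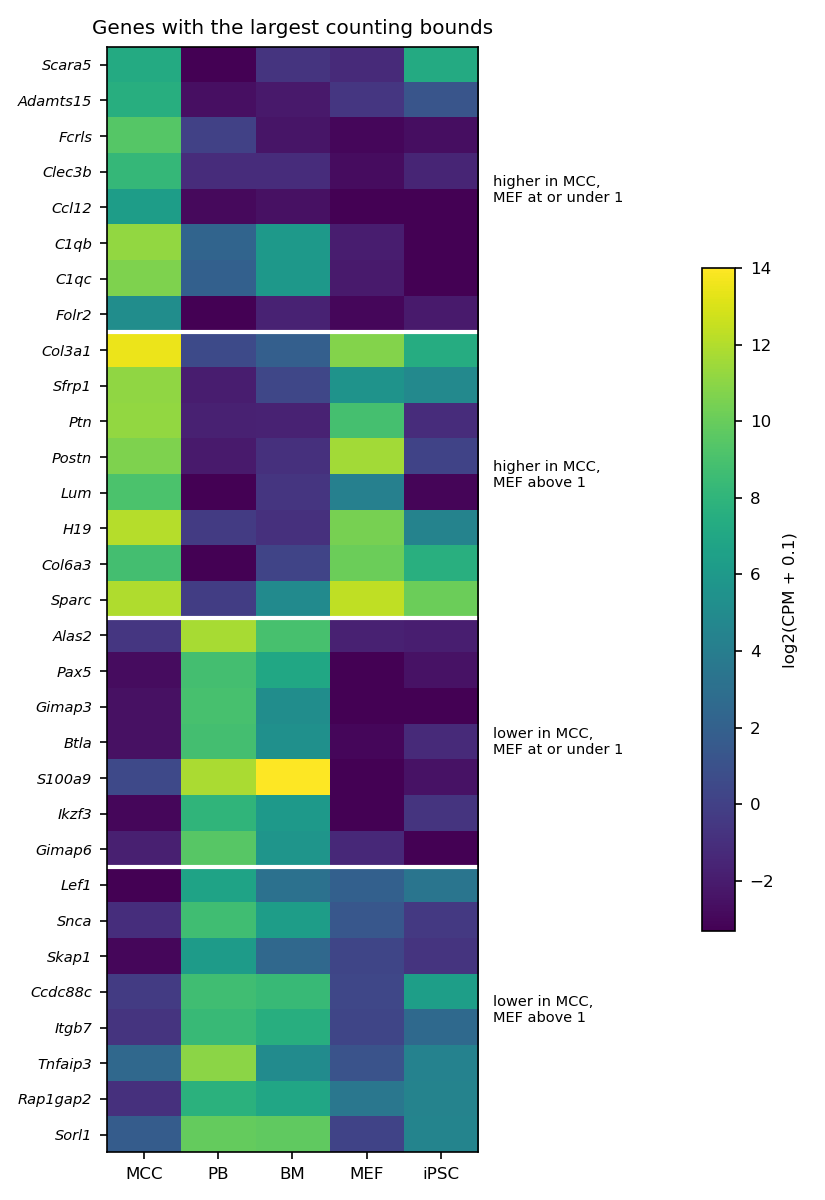
Heat map of log2(CPM + 0.1) in the 5 libraries for up to 8 genes with the largest counting bound in each of 4 sets: higher or lower in MCC than in PB, at or under 1 CPM in MEF or above it. In the top set, Scara5 is bright in iPSC as well as MCC (151 CPM in iPSC), and C1qb and C1qc are also read in BM.

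Above 1 CPM in MEF, matrix genes led the 2565 higher genes. Of 40 fibrillar collagen and matrix genes compared, 37 were higher in MCC and none lower, beside 22.9% and 8.44% of all genes above 1 CPM in MEF. The median log2 ratio of the 41 at 1 CPM or more was 10.91. Further, 25 of 31 mesenchymal receptor and transcription factor genes were higher. Col3a1, a fibrillar collagen, had 11734 CPM in MCC, 1.37 CPM in PB and 1770 CPM in MEF. Sfrp1, a secreted Wnt inhibitor, had 2217 CPM in MCC, 0.167 CPM in PB and 48.1 CPM in MEF, 13244-fold higher in MCC than in PB (5675 to 40789). Lum, a collagen-binding proteoglycan, had 543 CPM in MCC, no read in PB and 18.8 CPM in MEF. The part of fibroblast-type RNA in the other MCC values was not tested. Cell cycle genes were higher in 19 of 37 cases and lower in 1, and with the shared leukocyte median set to 1, 33 were higher and none lower. Cdk1 had 78.2 CPM in MCC, 2.85 CPM in PB and 109 CPM in MEF. Among the 946 lower genes above 1 CPM in MEF, Lef1, a T cell transcription factor, had no read in MCC, 105 CPM in PB and 3.93 CPM in MEF. Sorl1, a sorting receptor, had 3.24 CPM in MCC and 952 CPM in PB, 294-fold lower (249 to 349).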

How the data were processed

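The authors deposited read counts per gene symbol for 5 libraries, not normalized. The submitters' processing notes name featureCounts, STAR and mm10, with no version, annotation or strand setting given in the sources used here. Per the labels' protocols, polyA RNA came from Trizol extracts. All 5 columns matched a library by name. CPM were computed on TMM library sizes over the 5 libraries with edgeR 4.0.16 in R 4.3.3. Ratios, floors of 3 counts and exact 95% Clopper-Pearson intervals (conditional binomial, counting error only) were computed with scipy 1.17.1, pandas 2.3.3 and numpy 2.4.6 under Python 3.11.15, and plots drawn with matplotlib 3.10.9. The calculation was tested on simulated data. The floor of 3 counts was 0.0694 CPM in MCC and 0.100 CPM in PB. Gene positions and overlaps came from GENCODE M21 on mm10, which matched 33820 of the 34970 symbols, and promoters from RefSeq on GRCm38.p6.

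Gene groups were 41 lists with 1259 entries and 1128 distinct genes, 1119 of them in the table. The genes compared, the lists and the limits were chosen with earlier results of these data known. The genes named were the 8 with the largest counting bound in each of the 4 sets set by direction and MEF level, the 2 members of each list highest in MCC and in PB, other list members beside their list's count, and genes just inside and outside 4-fold. Some genes that this rule names are not reported here. Predicted genes, mitochondrial genes, receptor segments and haemoglobins were left out of the first part. Alternatives were DESeq2 1.42.0 size factors, total counts, TMM without abundant, mitochondrial and haemoglobin genes, the shared leukocyte median set to 1, no minimum, 20 CPM, the counting bound, 8-fold, and MEF limits of 0.5 and 2 CPM.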

Additional observations from a re-analysis of the deposited data

How the results depend on the processing

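With 1 library per group, only the processing could be varied. With the shared leukocyte median set to 1, 6875 genes were higher in MCC and 960 lower, and 6688 and 193 among those above 1 CPM in MEF. Without a minimum level the counts were 4219 higher and 4869 lower, with 862 and 3868 at or under 1 CPM in MEF. At 20 CPM 1798 were higher, with 53 higher and 490 lower at or under 1 CPM in MEF. At 8-fold 1678 were higher and 1259 lower, with 1560 and 380 above 1 CPM in MEF. These moves follow from the alternatives' own construction. Of the calls, 58.3% were higher in MCC as reported, 49.3% with DESeq2 size factors, 54.5% with total counts and 87.7% with the shared leukocyte median set to 1. In that last scaling the median log2 ratio changed sign for toll-like and pattern receptors (0.58), inflammasome and oxidase genes (0.90), interferon response genes (1.36), myeloid transcription factors (0.65), growth factor receptors (1.47) and stem and progenitor transcription factors (1.46). With all list members in place of those measured, the medians of the pluripotency, endothelial, and epithelial and neural lists became -0.53. That value is only the log2 ratio of the floor of 3 counts in MCC to that in PB. Genes at or under 3 counts in both libraries take it, so it shows no direction. The other counts over all genes, and over genes split by MEF level, stayed within 1.5 times of the reported ones. Of 82 counts by gene group, 37 moved further with the shared leukocyte median set to 1, 1 with DESeq2 size factors (epithelial and neural genes, 3 lower in place of 1), and none with total counts or with TMM without abundant genes. No paired analysis was possible because each group has 1 library. Depth limits genes under the floor of 3 counts.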
